A study of Homo sapiens with 4 samples.

Results

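The genes described here encode chaperones of the endoplasmic reticulum (ER) and the sensors and targets of the unfolded protein response. They were chosen by name, 32 genes in all, from a count table of 57992 Ensembl genes. Each symbol matched 1 row, and all 32 genes had enough reads to be tested. RNA was sequenced from MOLM13 cells, an established human acute myeloid leukaemia line, in a derivative that the labels call resistant to venetoclax, a BCL2 inhibitor. In 2 libraries a hairpin RNA (shRNA) against PRMT9, a protein arginine methyltransferase, had been switched on with doxycycline (PRMT9 shRNA), and in 2 libraries a control hairpin had been switched on the same way (control shRNA). All 4 libraries therefore share the cell line, the resistance and the doxycycline. The labels number the libraries of each group 1 and 2 and do not say whether these are separate cultures, technical repeats or different hairpin sequences, so SDs and p-values measure only the spread between these libraries.

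Secreted and membrane proteins fold in the ER with the help of lumenal chaperones, disulphide isomerases and lectins that bind unfinished glycans. When unfolded proteins build up, 3 sensors in the ER membrane respond. ATF6 travels to the Golgi, is cut there and becomes a transcription factor for chaperone genes. IRE1, encoded by ERN1, splices XBP1 mRNA in the cytosol so that it encodes an active factor, which drives genes of translocation, transport and degradation. PERK, encoded by EIF2AK3, phosphorylates eIF2 alpha and slows translation. Proteins that fail to fold are recognised by lectins, moved back to the cytosol and destroyed by the proteasome (ER-associated degradation). For description the members were put in an ATF6 and ER folding branch of 14 genes, an IRE1-XBP1 branch of 7, a degradation branch of 10, and EIF2AK3 alone for PERK. Several genes answer to more than 1 sensor, so the assignment is partly a convention. Gene counts show neither the spliced form of XBP1 mRNA nor cleaved ATF6.

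Total counts were 30764403 and 33845172 in the PRMT9 shRNA libraries and 30329901 and 28592902 in the control libraries. PRMT9 itself had 2.62 and 2.30 CPM (counts scaled to the library total) in the PRMT9 shRNA libraries, against 13.2 and 14.3 CPM in the control libraries, a log2 fold change of -2.48 (SE 0.117, edgeR adjusted p = 5.24e-13). Of 14 myeloid and leukaemia markers, all were tested, 11 were called higher in PRMT9 shRNA and 3 lower, beside 33.4% higher and 34.5% lower over all genes tested. Their summed level was 3154 to 3166 CPM in PRMT9 shRNA and 2401 to 2412 CPM in control. Single markers moved by more than the sum. CSF1R was at 61.4 CPM in PRMT9 shRNA and 16.9 CPM in control, and ITGAM at 108.8 CPM in PRMT9 shRNA and 30.6 CPM in control. The 3 lower were FCGR1A (log2 fold change -0.62), MPO (-0.47) and ELANE (-0.11). Of 9 plasma and B cell markers 3 were tested, and the list summed to 56.7 to 57.4 CPM in PRMT9 shRNA and 51.2 to 53.2 CPM in control. Of 7 T and NK cell markers 3 were tested, and that list, which holds CD4, summed to 434 to 439 CPM in PRMT9 shRNA and 314.8 to 315.0 CPM in control. In these lists TNFRSF17 and CD2 were at 0 in every library and MZB1, JCHAIN, CD3D and CD3E near 0, whereas PRDM1 (21.4 CPM in PRMT9 shRNA and 12.9 CPM in control), NKG7 (26.8 CPM in PRMT9 shRNA and 14.7 CPM in control) and CD4 were higher in PRMT9 shRNA, and PAX5 (34.9 CPM in PRMT9 shRNA and 38.6 CPM in control) and NCAM1 (177 CPM in PRMT9 shRNA and 189 CPM in control) lower. Of 7 erythroid and megakaryocyte markers 6 were at 0 and ITGA2B was higher, and the list summed to 0.678 to 0.808 CPM in PRMT9 shRNA and 0.318 to 0.331 CPM in control. Of 8 epithelial and stromal markers EPCAM was at 0 and KRT8 and KRT18 were higher, and the list summed to 36.3 to 37.3 CPM in PRMT9 shRNA and 27.8 to 28.0 CPM in control. Fewer cells of a type and less RNA per cell cannot be told apart in bulk RNA. The shifts in these markers accompanied every result below, and their part in them was not tested.

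Most of the ER genes were lower after PRMT9 knockdown. Of the 32 members, 26 fell, 3 rose (OS9, EDEM1 and EDEM2) and 3 were not called (XBP1, ERN1 and SYVN1). Over all 15193 genes tested, 34.5% were called lower, 33.4% higher and 67.9% in either direction, at an edgeR adjusted p below 0.05. The 26 falls are 81.2% of the members and the 3 rises 9.38%. In 27 members both PRMT9 shRNA libraries lay below both control libraries, and in 3 both lay above; over all genes tested these shares were 41.7% in each direction. The median log2 fold change was -0.40 over the members and 0.00085 over all genes tested.

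Counts and sizes varied by branch. In the ATF6 and ER folding branch all 14 genes fell (median log2 fold change -0.59, range -1.36 to -0.09). In the IRE1-XBP1 branch 5 of 7 fell and 0 rose (median -0.44, range -0.54 to 0.03), and XBP1 and ERN1 were the genes not called. In the degradation branch 6 of 10 fell and 3 rose (median -0.21, range -0.76 to 0.62). The difference between branches is a description and was not tested. It depends on the assignment: with 8 genes of shared control moved to another branch, the medians were -0.48, -0.50 and -0.029. In that assignment all 16 genes of the ATF6 branch fell, 7 of 10 in the IRE1-XBP1 branch fell and 1 rose, and 2 of 5 degradation genes fell and 2 rose. Summed over the 14 folding genes, the level was 4829 and 4802 CPM in the PRMT9 shRNA libraries and 5813 and 5853 CPM in the control libraries. The 10 degradation genes summed to 1174 and 1173 CPM in PRMT9 shRNA and 1147 and 1160 CPM in control. The rises, chiefly those of OS9 and EDEM1, thus offset the falls of 6 genes.

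**Figure D1:**
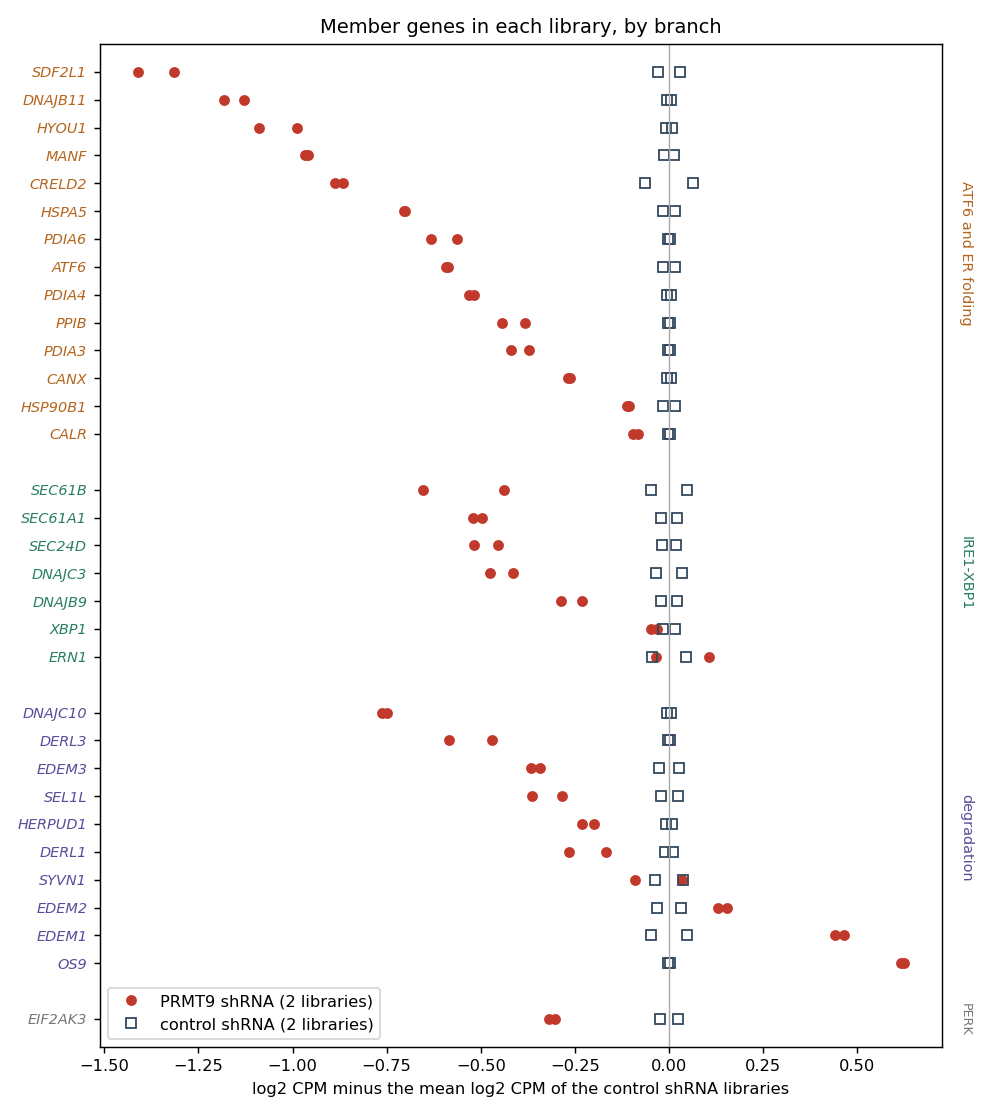
Each member in each library, as log2 CPM minus the mean log2 CPM of the control libraries; filled circles are the 2 PRMT9 shRNA libraries, open squares the 2 control libraries, and genes are ordered by log2 fold change within a branch. All 14 folding genes lie left of their controls, whereas OS9 (0.62) and EDEM1 (0.45) in the degradation branch lie to the right.

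Of the 3 sensor transcripts, ATF6 and EIF2AK3 fell and ERN1 was not called. ATF6 (ENSG00000118217, chromosome 1, 161766294 to 161964070) had 76.6 and 76.9 CPM in PRMT9 shRNA, against 114 and 117 CPM in control, a log2 fold change of -0.59 (SE 0.0307, edgeR adjusted p = 2.29e-12). Both PRMT9 shRNA libraries were below both controls, at 66.5% of the control mean. EIF2AK3, the PERK gene, had 14.6 and 14.4 CPM in PRMT9 shRNA and 18.3 and 17.6 CPM in control (-0.31, SE 0.0732, adjusted p = 0.000936). Of the exon bases of EIF2AK3, 15.1% lie opposite exons of other genes, which had at most 35 counts in a library. ERN1, the IRE1 gene, had 16.2 and 14.7 CPM in PRMT9 shRNA and 15.6 and 14.6 CPM in control, and the groups overlapped (log2 fold change 0.035, SE 0.0797, edgeR adjusted p = 0.714). Without PRMT9 shRNA replicate 1 the ERN1 value was -0.037 (adjusted p = 0.772).

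XBP1 RNA did not differ past the threshold. XBP1 (chromosome 22, 28794555 to 28800597, minus strand) had 380 and 376 CPM in PRMT9 shRNA, against 384 and 393 CPM in control. The libraries did not overlap but lay close together, and the log2 fold change of -0.040 (SE 0.0213, edgeR adjusted p = 0.104) did not pass the threshold. This small value depends on the fit: without control shRNA replicate 1 it was -0.064 with an adjusted p of 0.0119, and with upper-quartile scaling it was 0.048 with an adjusted p of 0.0458. Per length, in the authors' RPKM (reads scaled to exon length and library total), XBP1 was the fourth most abundant member, at a mean of 125 RPKM in PRMT9 shRNA and 128 RPKM in control. ERN1 was among the least abundant, at 1.42 RPKM in PRMT9 shRNA and 1.39 RPKM in control.

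Among the lumenal chaperones, HSPA5 and the members that act with it, HYOU1 and DNAJB11, fell. HSPA5, which encodes BiP, the ER member of the Hsp70 family that also holds the sensors inactive (chromosome 9, 125234853 to 125241330, minus strand), had 282 and 283 CPM in PRMT9 shRNA, against 455 and 465 CPM in control. The mean in PRMT9 shRNA was 61.4% of the control mean, a log2 difference of -0.70 with an SE of 0.0215 (edgeR adjusted p = 8.15e-16). Stretches of 50 bases found in another annotated gene made up 9.59% of its transcripts. HYOU1, a nucleotide exchange factor for BiP, had 72.4 and 67.5 CPM in PRMT9 shRNA and 143 and 144 CPM in control (-1.04, SE 0.0333, adjusted p = 1.73e-15). Not all genes that act with BiP were lower: outside the members, SIL1, its other exchange factor, was at 19.4 CPM in PRMT9 shRNA and 17.0 CPM in control (0.19, adjusted p = 0.0234), and the J-domain gene DNAJC1 was also higher (0.28).

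The J-domain cochaperone DNAJB11, which hands unfolded clients to BiP, had 18.4 and 19.1 CPM in PRMT9 shRNA and 41.9 and 41.6 CPM in control, a log2 fold change of -1.15 (SE 0.053, edgeR adjusted p = 3.45e-13). Of its exon bases, 15.3% lie opposite other genes, chiefly TBCCD1, and 7.87% overlap other genes on the same strand. TBCCD1 itself fell by 0.61 on the log2 scale and had 411 to 574 counts, beside 569 to 1268 for DNAJB11. The use of strand in counting is not given. SDF2L1, which works with DNAJB11 to keep clients soluble, had the largest fall of all members: 5.98 and 5.60 CPM in PRMT9 shRNA, against 14.6 and 15.2 CPM in control (-1.36, SE 0.0939, adjusted p = 1.55e-10). For these cochaperones the level in every PRMT9 shRNA library was below every control by more than the spread within either group.

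Stress-induced lumenal proteins of other kinds fell to a like extent. MANF, a secreted protein that binds BiP, had 13.6 and 13.5 CPM in PRMT9 shRNA and 26.7 and 26.2 CPM in control (-0.96, SE 0.0661, edgeR adjusted p = 1.44e-10). CRELD2, a disulphide-handling protein induced by ER stress, had 7.53 and 7.42 CPM in PRMT9 shRNA and 13.1 and 14.4 CPM in control (-0.88, SE 0.0921, adjusted p = 7.15e-08). MANF and CRELD2 were thus at 51.3% and 54.4% of the control mean.

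The 3 disulphide isomerase members of the folding branch fell by less. The disulphide reductase gene DNAJC10, in the degradation branch, fell by more than these 3 (-0.76). Others of the disulphide isomerase class outside the members did not share a direction. P4HB was at 909 CPM in PRMT9 shRNA and 888 CPM in control and was not called (0.034, edgeR adjusted p = 0.119). TXNDC5, with only 34 to 46 counts, was at 1.36 CPM in PRMT9 shRNA and 1.34 CPM in control (0.011, SE 0.258, adjusted p = 0.974). TXNDC11 was not called either (0.053). PDIA5 (-0.22), TMX1 (-0.32), TMX3 (-0.26) and ERP29 (-0.16) were called lower, and ERP44 (0.13) was called higher. PDIA6 had 245 and 257 CPM in PRMT9 shRNA and 379 and 380 CPM in control (log2 fold change -0.60), PDIA4 had 94.4 and 93.4 CPM in PRMT9 shRNA and 136 and 134 CPM in control (-0.52), and PDIA3, the partner of the lectin chaperones, 300 and 291 CPM in PRMT9 shRNA and 390 and 388 CPM in control (-0.40). Their edgeR adjusted p values were 4.68e-14, 3.78e-12 and 7.41e-12. The prolyl isomerase gene PPIB, which encodes cyclophilin B, had 176 and 168 CPM in PRMT9 shRNA and 229 in each control library (-0.41, adjusted p = 3.09e-11). Exons of PDIA6, PDIA3 and PPIB lie opposite exons of other genes over 25.2%, 18.9% and 27.2% of their length. The partner genes had few reads beside them, at most 246 counts for ATP6V1C2 (PDIA6), 13 for the partners of PDIA3 and 104 for SNX22 (PPIB). Matched on either strand, 50-base stretches found in other annotated genes made up 30.4% of the PDIA3 transcripts. This share takes in bases opposite ELL3, part of the overlap above, and bases shared with PDIA3P1.

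The 3 most abundant members changed least within the folding branch. CANX, the membrane-bound lectin chaperone calnexin, had 838 and 841 CPM in PRMT9 shRNA and 1005 and 1013 CPM in control (-0.27, SE 0.0187, edgeR adjusted p = 2.09e-10). HSP90B1, the ER member of the Hsp90 family, had 1108 and 1105 CPM in PRMT9 shRNA and 1180 and 1205 CPM in control (-0.11, SE 0.0189, adjusted p = 4.80e-05). CALR, the soluble lectin chaperone calreticulin and a calcium store of the ER, had 1590 and 1574 CPM in PRMT9 shRNA and 1687 and 1679 CPM in control (-0.089, SE 0.0179, adjusted p = 0.000213). For HSP90B1 and CALR the libraries of the 2 groups did not overlap, but the sizes are small and the calls were lost with upper-quartile scaling, where the values were -0.020 (adjusted p = 0.351) and -0.00069 (adjusted p = 0.974). In limma fits on RPKM the CALR call was lost with each pseudocount and filter (adjusted p = 0.0502 to 0.182), and that of HSP90B1 with no filter on low values (adjusted p = 0.0993).

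Level and change went together across the folding branch. Per length, CALR stood at 582 RPKM in PRMT9 shRNA and 620 RPKM in control, and HSP90B1 at 236 RPKM in PRMT9 shRNA and 254 RPKM in control. HSPA5 stood at 72.2 RPKM in PRMT9 shRNA and 118 RPKM in control, close to PPIB at 89.9 RPKM in PRMT9 shRNA and 119.9 RPKM in control. At the other end DNAJB11 had 3.26 RPKM in PRMT9 shRNA and 7.28 RPKM in control, and CRELD2 1.45 RPKM in PRMT9 shRNA and 2.66 RPKM in control. Across these 14 genes the correlation between log2 RPKM in control and log2 fold change was 0.820 (Pearson's r; Spearman's rho 0.829), so the scarcer transcripts had the larger falls. Across the 10 degradation genes r was 0.607 (rho 0.479), and over all 32 members 0.173 (rho 0.135). These values describe genes measured in the same 4 libraries, which are not independent points.

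**Figure D2:**
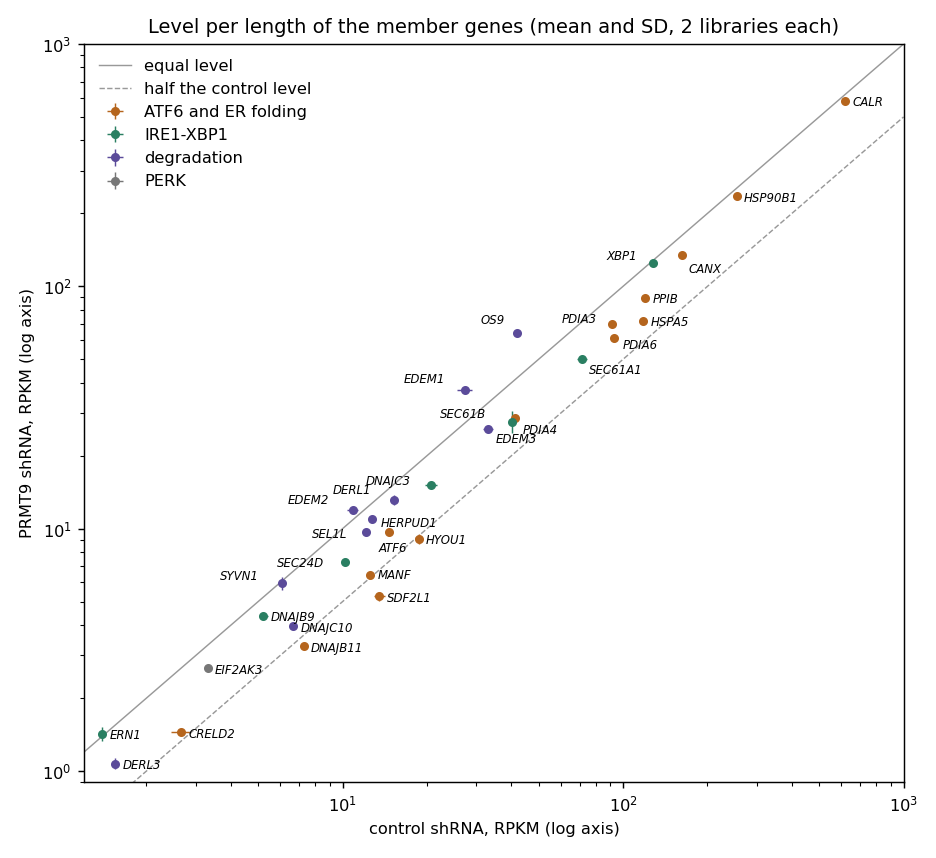
Mean RPKM of each member in PRMT9 shRNA (vertical) against control shRNA (horizontal), both on log axes, with SD over 2 libraries as bars and colours for the branches. DNAJB11, SDF2L1 and HYOU1 lie below the dashed line, CALR and HSP90B1 close to the line of equal level, and OS9, EDEM1 and EDEM2 above it.

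The member targets of IRE1 and XBP1 in translocation and transport fell by similar amounts. SEC61A1, the channel subunit of the translocon through which new proteins enter the ER (chromosome 3, 128051641 to 128071683), had 234 and 238 CPM in PRMT9 shRNA, against 330 and 340 CPM in control (-0.51, SE 0.0233, edgeR adjusted p = 3.40e-13). SEC61B, a small subunit of the same channel, had 30.5 and 35.4 CPM in PRMT9 shRNA and 49.6 and 46.4 CPM in control (-0.54, SE 0.0619, adjusted p = 1.18e-06). Its PRMT9 shRNA libraries differed more from each other than those of SEC61A1, yet both lay below both controls. SEC24D, a cargo-binding subunit of the COPII coat that carries proteins out of the ER, had 70.9 and 74.1 CPM in PRMT9 shRNA and 103 and 100.2 CPM in control (-0.49, adjusted p = 1.65e-10). Close relatives outside the members did not all follow. SEC61G (-0.11) and SEC61A2 (-0.044) were not called (edgeR adjusted p = 0.126 and 0.665). SEC24A (-0.44) and SEC24B (-0.28) were called lower, and SEC24C (0.060, adjusted p = 0.0323) was called higher.

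The J-domain genes of this branch fell as well. DNAJC3, which acts with BiP and inhibits PERK, had 83.1 and 86.8 CPM in PRMT9 shRNA and 113 and 118 CPM in control (-0.44, SE 0.0333, edgeR adjusted p = 5.64e-10). DNAJB9, a selective XBP1 target that represses IRE1 through BiP, had 12.2 and 12.6 CPM in PRMT9 shRNA and 14.6 and 15.03 CPM in control (-0.26, SE 0.0799, adjusted p = 0.00819). The DNAJB9 call was lost without PRMT9 shRNA replicate 1 (-0.23, adjusted p = 0.0557), with upper-quartile scaling (-0.17, adjusted p = 0.0698) and with DESeq2 (-0.26, adjusted p = 0.125).

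In the degradation branch the glycan-reading lectins moved apart. OS9, a lectin that delivers misfolded glycoproteins to the ubiquitin ligase complex of the ER membrane (chromosome 12, 57693955 to 57721557), had 333 and 331 CPM in PRMT9 shRNA, against 216 and 215 CPM in control. This was the largest rise among the members, at 154% of the control mean (log2 fold change 0.62, SE 0.0221, edgeR adjusted p = 8.15e-15). Of its exon bases 13.5% lie opposite a non-coding gene that had 3 to 9 counts. ERLEC1, the other lectin of this kind and no member, was at 36.3 CPM in PRMT9 shRNA and 48.6 CPM in control (-0.42, adjusted p = 1.18e-07).

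The 3 EDEM genes, which encode mannosidase-like proteins that mark glycoproteins for removal, did not share a direction. EDEM1 had 249.8 and 254 CPM in PRMT9 shRNA and 178 and 190.03 CPM in control (0.45, SE 0.028, edgeR adjusted p = 2.91e-11). EDEM3 had 203 and 200.3 CPM in PRMT9 shRNA and 253 and 263 CPM in control (-0.35, SE 0.0247, adjusted p = 1.79e-10). EDEM2 had 23.2 and 22.8 CPM in PRMT9 shRNA and 20.4 and 21.3 CPM in control (0.14, SE 0.0617, adjusted p = 0.0493). EDEM1 and EDEM3 thus changed in opposite directions with no overlap of libraries, whereas EDEM2 only just passed. The EDEM2 call was lost without PRMT9 shRNA replicate 1 (adjusted p = 0.181), PRMT9 shRNA replicate 2 (0.0982) or control shRNA replicate 1 (0.264), with DESeq2 (0.366), with no filter on low counts (0.125) and in each fit on RPKM (0.0657 to 0.109).

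Genes around the ubiquitin ligase of the retrotranslocation complex moved in both directions: besides OS9 (0.62), its cofactor gene FAM8A1, which is no member, rose (0.72), SEL1L and HERPUD1 fell, and the ligase gene was not called. SYVN1, the ubiquitin ligase at its core (HRD1), had 34.1 and 31.3 CPM in PRMT9 shRNA and 34.2 and 32.5 CPM in control, with overlapping groups (-0.029, SE 0.0549, edgeR adjusted p = 0.651). SEL1L, its lumenal adaptor, had 95.0 and 90.1 CPM in PRMT9 shRNA and 118 and 114 CPM in control (-0.33, adjusted p = 3.72e-08). HERPUD1, which organises the complex, had 55.8 and 57.0 CPM in PRMT9 shRNA and 65.8 and 65.1 CPM in control (-0.21, adjusted p = 6.56e-05). Thus SEL1L and HERPUD1 fell beside a ligase gene that was not called. Of the SYVN1 exon bases 8.39% overlap exons of other genes on the same strand and 6.48% on the opposite strand. Among these genes FAU had 4447 to 5671 counts (log2 fold change 0.11) and MRPL49 760 to 955 (-0.33), beside 921 to 1062 for SYVN1. The SYVN1 value may therefore hold their reads.

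The members DERL1 and DERL3, which encode derlins, membrane proteins of the exit channel, were lower, whereas the other derlin gene, DERL2, which is no member, was at 25.9 CPM in PRMT9 shRNA and 26.1 CPM in control, with overlapping groups (-0.014, edgeR adjusted p = 0.829). DERL1 had 90.2 and 96.5 CPM in PRMT9 shRNA and 109 and 108 CPM in control (-0.21, edgeR adjusted p = 1.42e-05). DERL3 had 131 and 133 counts in PRMT9 shRNA and 178 and 166 counts in control (-0.53, SE 0.13, adjusted p = 0.00147), a call lost with DESeq2 (adjusted p = 0.0521) and in log2(RPKM + 1) with no filter (-0.30, adjusted p = 0.0685). DERL3 is uncertain for another reason. Of its exon bases 77.0% lie opposite exons of SMARCB1, a chromatin remodelling gene with 2583 to 2829 counts in each library. The same overlap shows in its 50-base stretches. Matched on either strand, 67.0% of them occur elsewhere, and SMARCB1 was the only gene outside the members that held them. DNAJC10, a disulphide reductase that unlocks proteins before export, fell most in this branch, to 86.0 and 86.7 CPM in PRMT9 shRNA, against 146 and 145 CPM in control (-0.76, SE 0.0282, adjusted p = 1.59e-14).

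Promoter sequences were read for the 28 members with an entry in the RefSeq table (GRCh38.p14), 35 windows of 300 bases, from 250 before to 50 after a start site. The other 4 are DERL1, DERL3, PDIA3 and SEC24D. The ER stress response element (ERSE) is spelled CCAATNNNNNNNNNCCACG, where the CCAAT part is known to bind NF-Y and the CCACG part ATF6 or XBP1. ERSE-II is spelled ATTGGNCCACG. On either strand, an ERSE was present in 0.0769% of all 35116 promoter windows and in 9 of the 35 member windows, which is 0.0916% of all 27305 genes and 7 of the 28 members. An ERSE-II was present in 0.0541% of windows and 0.0696% of genes, and in 3 members. The sequences below are shown because these 10 genes include the members with the best known stress elements and their changes run from -1.36 to -0.040. Each reads 5′ to 3′ on the strand where the element has the spelling above, with the element in capitals and 15 flanking bases on each side.
HSPA5, chr9:125241376-125241424, minus strand: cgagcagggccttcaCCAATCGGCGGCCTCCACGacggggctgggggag
PDIA6, chr2:10812838-10812886, minus strand: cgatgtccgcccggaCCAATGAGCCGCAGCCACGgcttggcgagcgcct
CRELD2, chr22:49918539-49918587, minus strand: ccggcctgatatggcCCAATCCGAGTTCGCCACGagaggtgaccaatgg
CANX, chr5:179698763-179698811, plus strand: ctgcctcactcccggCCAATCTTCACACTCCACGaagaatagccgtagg
HSP90B1, distal, chr12:103930201-103930249, plus strand: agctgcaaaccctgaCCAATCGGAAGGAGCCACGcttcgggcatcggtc
HSP90B1, proximal, chr12:103930306-103930354, minus strand: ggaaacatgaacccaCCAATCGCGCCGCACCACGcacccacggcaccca
CALR, chr19:12938369-12938417, minus strand: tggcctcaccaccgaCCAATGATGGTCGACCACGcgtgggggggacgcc
XBP1, chr22:28800588-28800636, minus strand: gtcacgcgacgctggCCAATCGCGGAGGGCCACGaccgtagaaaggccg
HYOU1, distal, chr11:119057365-119057405, plus strand: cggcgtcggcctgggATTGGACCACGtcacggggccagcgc
HYOU1, proximal, chr11:119057259-119057299, plus strand: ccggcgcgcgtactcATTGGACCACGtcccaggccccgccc
SDF2L1, chr22:21642099-21642139, minus strand: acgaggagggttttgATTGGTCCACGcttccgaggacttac
HERPUD1, chr16:56932010-56932050, plus strand: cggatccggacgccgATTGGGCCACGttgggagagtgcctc

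The whole window of HSPA5 (chr9:125241294-125241593, minus strand, read 5′ to 3′) shows where its element lies, in capitals, upstream of the start site.
HSPA5 promoter: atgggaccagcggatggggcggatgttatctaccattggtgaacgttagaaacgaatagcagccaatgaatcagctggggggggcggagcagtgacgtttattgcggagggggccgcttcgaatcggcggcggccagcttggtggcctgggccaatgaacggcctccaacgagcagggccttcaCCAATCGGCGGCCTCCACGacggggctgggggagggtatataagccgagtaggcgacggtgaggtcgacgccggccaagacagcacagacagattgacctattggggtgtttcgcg

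Genes with an element did not change by a common amount. SDF2L1 (-1.36) and HYOU1 (-1.04), with ERSE-II, and CRELD2 (-0.88) and HSPA5 (-0.70), with ERSE, were among the larger falls. So were DNAJB11 (-1.15) and MANF (-0.96), which have neither element in the windows read. HSP90B1 (-0.11), which holds 2 ERSE matches, and CALR (-0.089), with 1, were the smallest falls of the folding branch, and XBP1 (-0.040), also with an ERSE, was not called. The 10 members with either element had a median log2 fold change of -0.43 (range -1.36 to -0.040), with 9 falls and 0 rises. The 18 with neither had a median of -0.38 (range -1.15 to 0.62), with 13 falls and 3 rises. The shorter core TGACGTG, known from ATF6 and XBP1 binding, was present in 1.97% of all windows and 2.40% of all genes, and in 3 of the 28 members, namely HYOU1, DNAJC10 and SEC61A1. In HYOU1 it overlaps the distal ERSE-II by 4 bases. A match describes letters only and says nothing of binding in these cells.

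**Figure D3:**
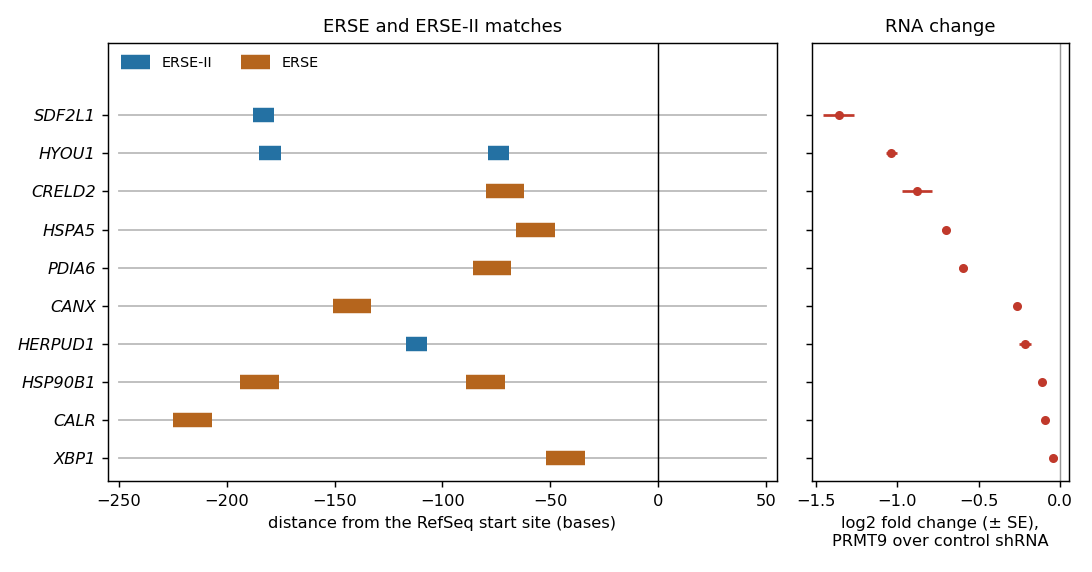
Left, positions of ERSE (brown) and ERSE-II (blue) matches relative to the RefSeq start site, in bases, for the 10 members that hold one, drawn for 1 of the 4 start sites of CANX; right, log2 fold change of each gene, PRMT9 shRNA over control shRNA, with SE. The drawn elements begin between 225 (CALR) and 52 (XBP1) bases upstream, in genes that had log2 fold changes from -1.36 to -0.040.

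Outside the members, ERSE matches were present in 15 other genes of the count table, of which 10 were tested, with 3 called lower and 5 higher (median log2 fold change 0.14). Among them SERP1, a small protein that stabilises ER membrane proteins under stress, fell by 1.44 on the log2 scale (SE 0.0261, edgeR adjusted p = 6.15e-19), and FICD, which modifies BiP with AMP, fell by 0.60 (adjusted p = 0.00111). ZNF17 also fell, by 0.29, and ERO1B, an ER oxidase (0.12), and ALG12, a mannosyltransferase of N-glycan assembly (-0.058), were not called. The 5 called higher were EIF2A (0.16, SE 0.0247), TMEM120A (0.54, SE 0.0942), TRIM5 (0.54, SE 0.0458), SYNPO (1.01, SE 0.179) and NLRP4 (4.37, SE 0.923). The NLRP4 value had the largest SE of these 5. Of 9 tested carriers of ERSE-II that are no members, 4 were lower and 2 higher (median -0.05). These carriers were named with their values already known.

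The wider secretory pathway was examined through 7 lists of genes that are no members, 148 of 149 of which matched a row and 140 were tested. Over the lists 91 genes were called lower and 32 higher (65.0% and 22.9%), with a median log2 fold change of -0.21, against 34.5% lower and 33.4% higher over all genes tested. Genes of N-glycosylation and glycan trimming had 17 falls and 3 rises among 20 (median -0.26). STT3B, a catalytic subunit of the oligosaccharyltransferase, was at 122.9 CPM in PRMT9 shRNA and 320.3 CPM in control (-1.38, SE 0.0242, edgeR adjusted p = 3.91e-19), and RPN1, another subunit, fell by 0.45. The glucosidase subunit gene PRKCSH (0.26) and the mannosidase gene MAN1B1 (0.42) rose.

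Export and translocation genes were also mostly lower. Of 20 tested genes of ER export and retrieval 16 fell and 4 rose (median -0.27), with the COPII GTPase gene SAR1A (-0.69) and its exchange factor gene PREB (-0.64) among the falls and MCFD2 (0.54), a cargo receptor subunit, and SEC31A (0.41), a coat subunit, among the rises. Of 22 translocon and signal peptidase genes 16 fell and 1 rose (median -0.21). The signal peptidase subunit gene SPCS3 was at 135.6 CPM in PRMT9 shRNA and 249.2 CPM in control (-0.88, edgeR adjusted p = 4.61e-16), SRP9, part of the signal recognition particle, fell by 0.51, and SRP68, of the same particle, rose by 0.17.

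Among 22 other folding enzymes 9 genes fell and 5 rose (median 0.022). The peroxiredoxin gene PRDX4 (-0.52) and the thioredoxin-like gene TMX1 (-0.32) fell, and the sulphydryl oxidase gene QSOX1 (0.48) and the J-domain gene DNAJC1 (0.28) rose. Other degradation genes had 12 falls and 10 rises among 23 (median -0.10). VCP, the ATPase that pulls proteins from the membrane, fell by 0.55 and the ubiquitin-conjugating enzyme gene UBE2G2 by 0.77, whereas FAM8A1, a cofactor of HRD1, was at 66.2 CPM in PRMT9 shRNA and 40.3 CPM in control (0.72, SE 0.0416, edgeR adjusted p = 1.19e-11) and ERLIN2, of a lipid raft complex, rose by 0.52.

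Regulators of the sensors had 10 falls and 5 rises among 17 tested genes (median -0.15). NFYB, a subunit of the CCAAT-binding factor that ERSE needs, was at 39.7 CPM in PRMT9 shRNA and 70.5 CPM in control (-0.83, SE 0.0415, edgeR adjusted p = 1.25e-12), whereas the other subunits of that factor split, NFYA being lower by less (-0.25, adjusted p = 4.75e-06) and NFYC higher (0.39, adjusted p = 2.15e-07). YY1, a zinc finger factor, fell by 0.41. ATF6B, the close relative of ATF6, rose by 0.39, opposite to ATF6 itself, and BFAR, an ER membrane ligase, by 0.58. In the list for PERK and ATF4, 11 of 16 fell and 4 rose (median -0.39, range -2.55 to 2.73). The serine synthesis gene PSAT1 (-1.60) and PPP1R15B (-1.42), the constitutive subunit that reverses eIF2 alpha phosphorylation, fell, whereas PPP1R15A, the inducible counterpart, was at 50.7 CPM in PRMT9 shRNA and 16.9 CPM in control (1.59, adjusted p = 4.15e-15), and the death receptor gene TNFRSF10B rose by 0.39.

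**Figure D4:**
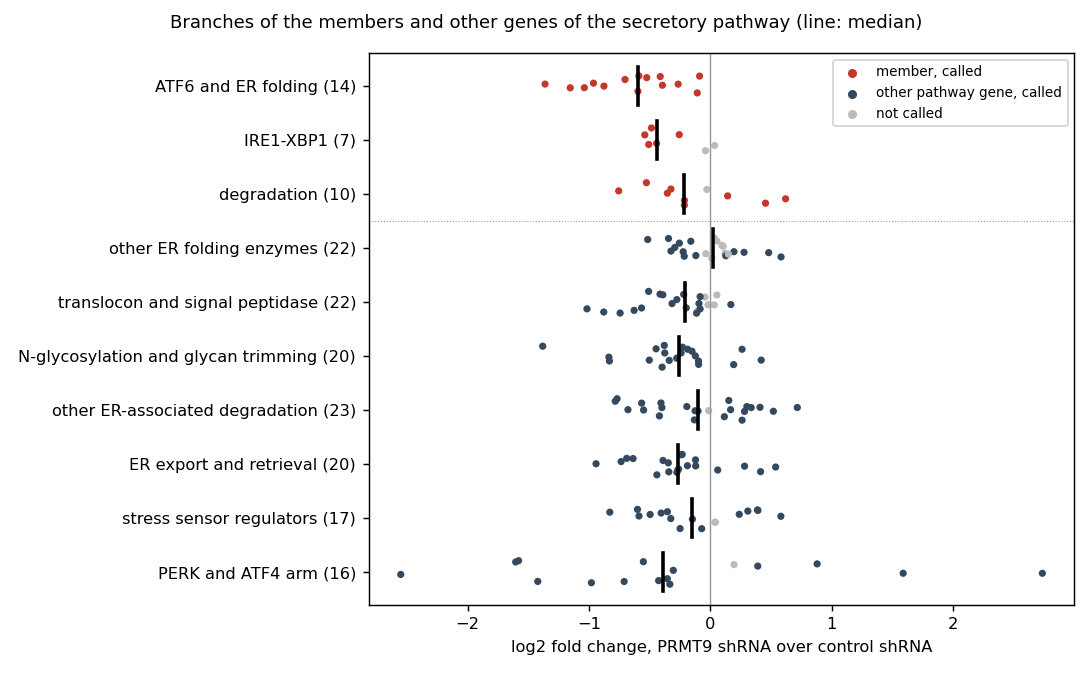
Log2 fold change, PRMT9 shRNA over control shRNA, of every tested gene in the 3 member branches (above the dotted line) and in 7 lists of other secretory pathway genes (below), with the number of genes in brackets and the median as a black line. The median of the ATF6 and ER folding branch (-0.59) lies left of all other medians, and that of the other folding enzymes (0.022) is near 0.

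Exons of 14 members overlap no exon of another gene in GENCODE release 29, and 8 have over 10% of their exon bases overlapped, all given above. The sizes given for these 8 genes may hold reads of the partner, since the use of strand is not stated. With 2 libraries a group, adjusted p values rest on the spread borrowed across genes, and the scaling sets the 0 of small changes: with upper-quartile scaling the median of all genes was 0.09, and 23 members were called lower and 4 higher.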

How the data were processed

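Poly(A) RNA of 4 libraries was measured. Per the file headers, the authors deposited a raw count and an RPKM value for every Ensembl gene in each library; gene positions are those of GRCh38. The submitters' processing notes list Trimmomatic 0.39, STAR 2.7.2a and SAMtools 1.10 but no role for any of them. How reads were counted, whether by strand and on which annotation release, is not stated there. The deposited RPKM differed from the count scaled to exon length and library total by a factor of 0.979 to 1.01.

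Counts were tested with edgeR 4.0.16 in R 4.3.3: filterByExpr (minimum count 10), TMM scaling, and the quasi-likelihood test across all genes with robust estimation and a group term. A gene was called at a Benjamini-Hochberg adjusted p below 0.05 over 15193 genes. CPM uses TMM-scaled library sizes. Log2 fold changes are PRMT9 shRNA over control shRNA. The fit was tested on simulated data. Of 49 tested genes at each size, 26 changed 1.25-fold were called in the right direction. The counts were 31 at 1.5-fold, 39 at 2-fold and 46 at 4-fold. Of 14695 unchanged genes 3 were called. The simulation changed 200 of 15193 genes, whereas 67.9% were called in these data, so its counts do not carry over to the real fit. A gene not called may still have changed. Alternatives used other scalings and filters, DESeq2 1.42.0, limma 3.58.1 (voom, or log2 RPKM plus 1 or 0.1), the replicate number as a block, and each library left out.

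The members, branches and lists were chosen with earlier results of these data known. Named genes are all members, PRMT9 and, per list, the 2 falls and 2 rises with the lowest adjusted p at a mean of 10 CPM or more. Added after their values were seen were ERLEC1, DERL2, P4HB, PDIA5, TXNDC5, TXNDC11, TMX3, ERP29, ERP44, SIL1, NFYA, NFYC, promoter motif carriers, overlapping genes and the individual markers named. SEC61G, SEC61A2, SEC24A, SEC24B and SEC24C were added in the same way. Overlaps and shared 50-base windows were computed on GENCODE release 29, with other genes read on both strands. A planned search of protein ends was not run. Replicate libraries differed by more than counting noise (chi-square per degree of freedom 1.60 in PRMT9 shRNA and 3.00 in control).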

Additional observations from a re-analysis of the deposited data

How the results depend on the processing

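The counts of members called lower (23 to 27) and higher (2 to 4) stayed within 1.5 times the reported 26 and 3 under every alternative run, as did the counts over all genes and over the other pathway lists. Of 480 alternative values of single members, 455 kept direction and side of the threshold, 19 lost the call, 1 gained it with the same sign and 5 changed sign, 1 of these (XBP1 with upper-quartile scaling) passing the threshold as higher; all 420 of the other named genes kept both. The sign changes were in genes not called in the reported fit: XBP1 with upper-quartile scaling (0.048), SYVN1 with upper-quartile scaling (0.059), with a filter at 1 CPM (0.0024) and with a library left out (-0.094 to 0.036), and ERN1 with a library left out (-0.037 to 0.11). The median of the ATF6 and ER folding branch was -0.50 with upper-quartile scaling, -0.56 with a filter at 1 CPM, -0.56 in log2(RPKM + 1) with and without a filter on low values, -0.48 under the other assignment and -0.61 to -0.57 with a library left out. The IRE1-XBP1 median was -0.35 with upper-quartile scaling, -0.50 under the other assignment and -0.47 to -0.39 with a library left out. The degradation median was -0.13 with upper-quartile scaling, -0.029 under the other assignment and -0.25 to -0.18 with a library left out. Upper-quartile scaling gave 73 lower and 41 higher genes over the other lists, against 91 and 32.

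The labels give both groups the numbers 1 and 2 without saying that a number marks a shared culture. The deviations of same-numbered libraries from their group means had a correlation of -0.0307. With 2 libraries a group, this value cannot decide whether same-numbered libraries shared a culture or a batch. With the replicate block 26 members were lower and 3 higher, 5229 genes were lower and 5014 higher over all genes, the branch medians were -0.59, -0.44 and -0.22, and no call among the members changed.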
